A study of Mus musculus with 3 samples.

Results

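Macrophage scavenger and surface markers were followed in the mouse utero-tubular junction, the narrow passage between the uterus and the oviduct. The members are 8 genes: Adgre1 (older name Emr1), Cd68, Mrc1, Msr1, Marco, Cd163, Fcgr1 and Lyz2. They were chosen by name, as the non-control probes of the array whose gene name is on a list of 9 names. Of 41174 non-control probes, 11 carried a listed name and stood for 7 of the genes. Lyz2 appears on the array under its older name Lyzs, and its 2 probes were added through their transcript accession, so 13 probes of 8 genes are described, out of 27641 named genes. Total RNA came from adult CD-1 females, all in estrus, in 3 groups. The first group had not mated, the second had mated with vasectomized males, whose ejaculate carries no sperm, and the third had mated with normal males. Each group was 1 pool of 10 females on 1 single-colour Agilent array, and the sources used here do not state how long after mating tissue was taken. A pool holds no measure of the spread between females, so no difference below has a replicate check and no p-value is given.

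Macrophages are phagocytes that live in nearly every tissue and are joined by monocytes from the blood when a tissue is inflamed. They carry scavenger receptors, which bind modified lipoproteins, microbes and dying cells, and Fc receptors, which bind antibody-coated particles. What they take up is broken down in lysosomes, and in the female tract phagocytes that enter the lumen after mating are known to clear sperm and debris.

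The promoters of Cd68 and Mrc1 are shown because these genes ranked differently across the 3 arrays, Cd68 being highest after mating with a normal male and Mrc1 after mating with a vasectomized male. The sequences are the 250 bases before the start of each gene, from the RefSeq promoter table of the mouse assembly GRCm38.p6, which held 6 of the 8 members. Capitals mark the hexamer GAGGAA, or TTCCTC where it lies on the other strand. It is the core of the purine box bound by PU.1, a transcription factor required for macrophage development.
Cd68, chr11:69666171-69666420, minus strand: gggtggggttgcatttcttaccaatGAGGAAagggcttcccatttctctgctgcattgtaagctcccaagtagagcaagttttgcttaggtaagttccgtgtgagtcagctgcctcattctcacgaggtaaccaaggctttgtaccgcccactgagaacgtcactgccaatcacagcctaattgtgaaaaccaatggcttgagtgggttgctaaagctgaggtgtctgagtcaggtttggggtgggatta
Mrc1, chr2:14229164-14229413, plus strand: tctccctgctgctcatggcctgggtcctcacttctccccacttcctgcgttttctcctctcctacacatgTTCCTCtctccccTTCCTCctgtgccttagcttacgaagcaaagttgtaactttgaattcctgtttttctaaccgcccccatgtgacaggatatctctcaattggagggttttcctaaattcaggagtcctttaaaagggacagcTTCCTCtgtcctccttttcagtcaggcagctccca
The hexamer was found on either strand in the promoters of 4 of those 6 genes, and in 23.3% of all 32851 promoters of the table. The Cd68 promoter held 1 match, beginning 225 bases before the start, and the Mrc1 promoter held 3, beginning 180, 167 and 35 bases before it. Marco and Fcgr1 had 1 match each, and Cd163 and Lyz2 had none in this window. A match describes the letters only. Spi1, the gene of PU.1, had signals of 4.0, 1.2 and 11.1 on the arrays in the order not mated, vasectomized mated, normal mated, and it was well above background on the last of these alone.

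Signals below are the processed intensities of the scanner software in linear units, always in the order not mated, vasectomized mated, normal mated. An error after a signal is that of the software's error model for 1 spot, which covers measurement and not animals. Ratios are log2 values after each array was scaled to its own 75th percentile, a difference of 1 being 2-fold, and their error combines the error model of both spots. The arrays differed in brightness. The 75th percentile was 874, 295 and 708, whereas the mean signal of 246 spike-in spots was 4640, 10354 and 5359. Between 65.9% and 70.7% of spots were well above background, and none was saturated. All 20 genes of a list of oviduct, uterus, epithelium and muscle markers were well above background on the 3 arrays, and so were all 8 macrophage markers. Markers of the labelled tissue did not all keep their level. Hoxa10, a homeobox gene of the uterus, had signals of 3967, 1391 and 435, for log2 ratios of -2.89 after normal and 0.06 after vasectomized mating. Pax8, with the largest change of that list, had signals of 734, 18.2 and 314, for ratios of -0.92 and -3.76.

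After mating with a normal male, Cd68 and Msr1 exceeded the not mated level at least 2-fold, and no member was at least 2-fold lower. Among all 19303 genes compared, 9.81% were that much higher and 13.2% that much lower, together 23.0%. The other 6 members lay between -0.77 for Cd163 and 0.69 for Marco. The median over the 8 members was 0.09, beside -0.05 over all genes. After mating with a vasectomized male, 7 of the 8 members were at least 2-fold higher and none was lower, Cd68 being the exception. Of 19306 genes compared, 25.8% were at least 2-fold higher and 16.5% lower, together 42.4%. The median of the members was 1.78, beside 0.18 over all genes. Both comparisons use the same not mated array. In pooled tissue, more cells of a type and more RNA per cell cannot be told apart.

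**Figure D1:**
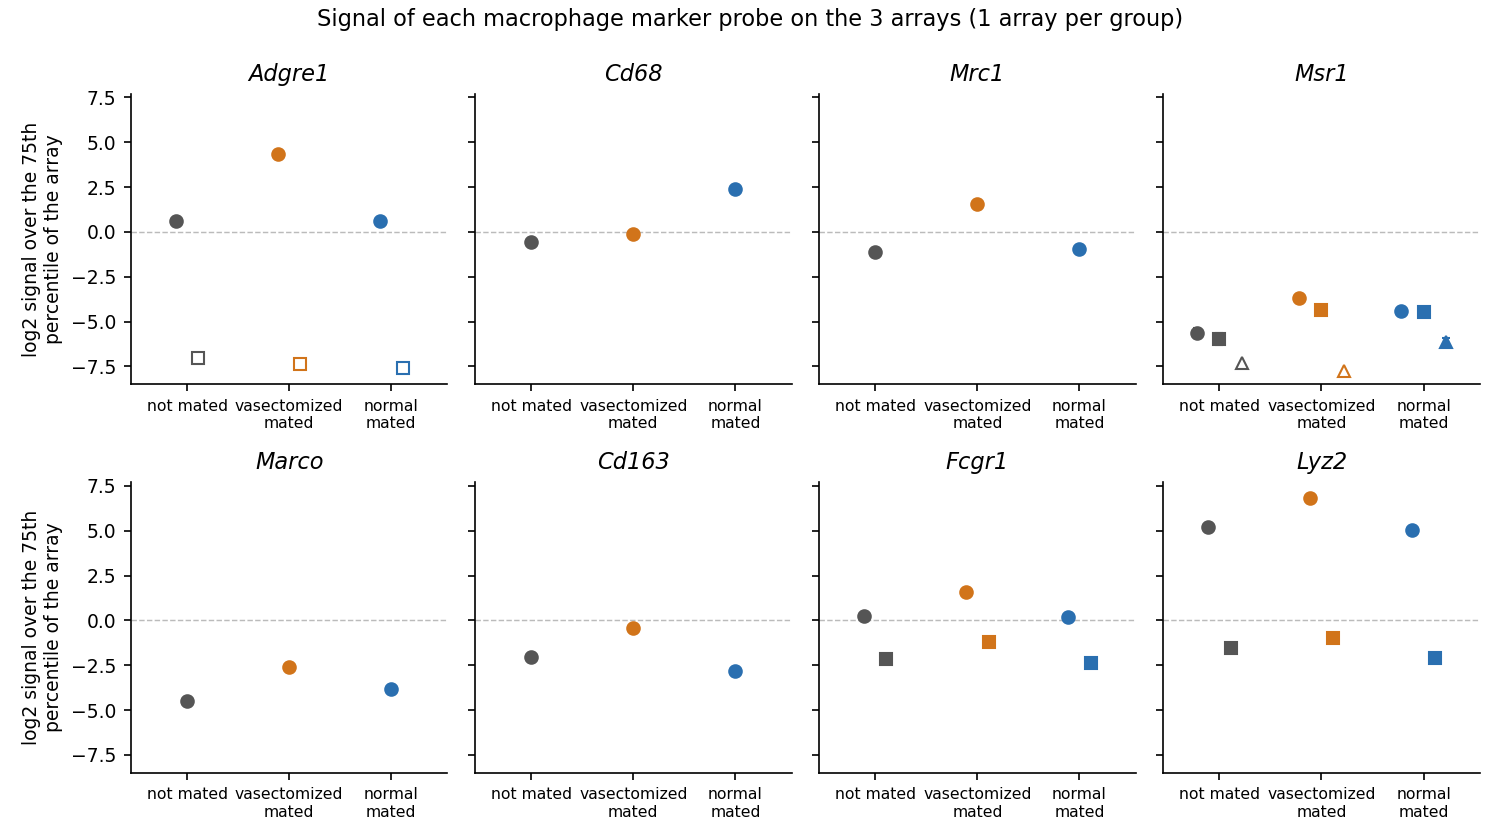
Log2 signal of every probe of the 8 markers relative to the 75th percentile of its array (dashed line), with 1 array per group in the order not mated, vasectomized mated, normal mated. Filled symbols are well above background and open ones are not, shapes separate the probes of a gene, and bars give the software's error model, mostly smaller than the symbol. Levels of different probes are not comparable with each other. Adgre1 stands out on the vasectomized-mated array and Cd68 on the normal-mated array.

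Adgre1 encodes F4/80, the adhesion receptor whose antibody is the standard marker of mature mouse macrophages. Its signal was 1339 ± 134, 6009 ± 601 and 1069.6 ± 107. The not mated and normal-mated arrays were alike, with a log2 ratio of -0.02 ± 0.20, and the vasectomized-mated array was high. The ratio of vasectomized mated to not mated was 3.73 ± 0.20, or 13.3-fold, and only 204 of the genes compared had a larger one. The signal itself, without scaling, was higher by 2.17. The probe was highest in rank on the vasectomized-mated array: it was brighter than 80.3%, 96.6% and 80.1% of probes on the 3 arrays, in the same order. This probe lies at chr17:55686649-55686708 on the mm7 assembly named in the file headers. The other Adgre1 probe, 72836 bases away towards the 5' end, had signals of 6.6, 1.8 and 3.7 and was well above background on no array, so the difference rests on 1 probe.

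Cd68 encodes macrosialin, a heavily glycosylated protein of late endosomes and lysosomes in phagocytes. Its signal was 592 ± 59.3, 274 ± 27.5 and 3687 ± 369. The normal-mated array stood apart from the other two. The log2 ratio of normal mated to not mated was 2.94 ± 0.20, or 7.68-fold, and 201 genes had a larger one. The ratio of vasectomized mated to not mated was 0.46 ± 0.20, and without scaling the signal on the vasectomized-mated array was lower, by -1.11. Cd68 had a single probe, at chr11:69746386-69746445. It was brighter than 71.2%, 75.04% and 90.8% of probes on the 3 arrays.

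Cd68 and Adgre1, both used as general macrophage markers, thus ranked the matings in opposite order. The ratio of Cd68 minus that of Adgre1 was 2.96 for normal mated against not mated and -3.28 for vasectomized mated against not mated. A constant scaling of an array cancels in this difference. Between the 2 matings the pair differed by 6.24 on the log2 scale, and of all pairs of members these were the farthest apart over the 3 arrays.

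**Figure D2:**
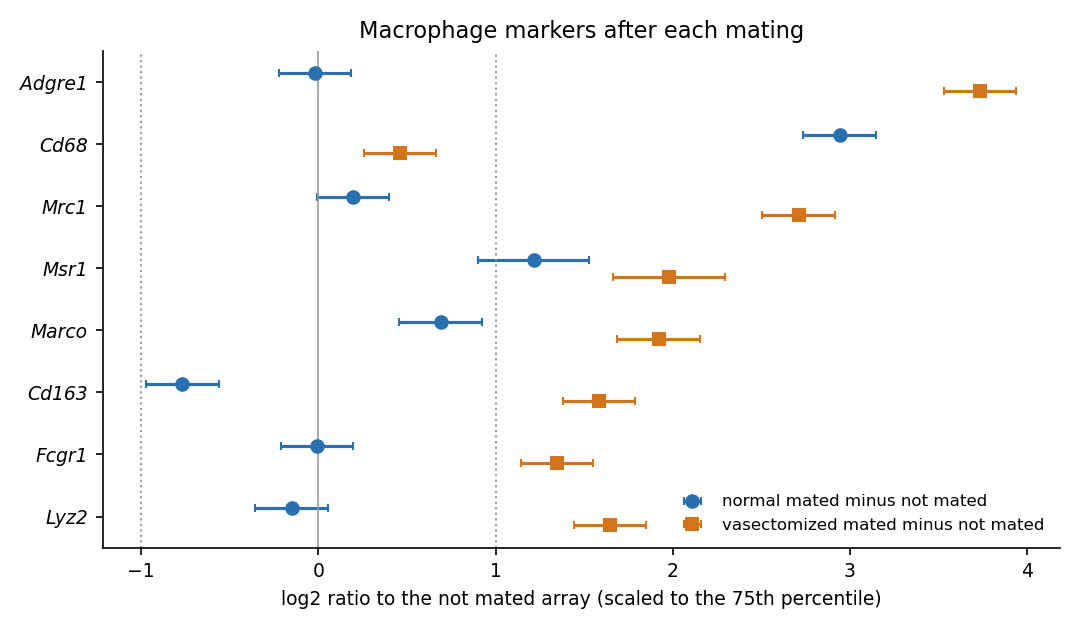
Log2 ratio to the not mated array of each marker after mating with a normal male (circles) and with a vasectomized male (squares), with the error of the software's error model for 1 array per group. Dotted lines mark 2-fold. Cd68 is the only marker whose ratio is larger after normal mating, 2.94 against 0.46.

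Mrc1 and Cd163 are endocytic receptors typical of resident and anti-inflammatory macrophages. Mrc1, the mannose receptor, takes up glycoproteins and had signals of 398 ± 39.9, 877 ± 87.7 and 369 ± 36.9. Its level was high on the vasectomized-mated array, and the other arrays lay within the error, with a normal-mated ratio of 0.19 ± 0.20. The vasectomized-mated ratio was 2.71 ± 0.20, or 6.54-fold, larger than that of 96.5% of genes, and the unscaled signal was higher by 1.14. Cd163, which clears haemoglobin bound to haptoglobin, had signals of 213 ± 21.5, 216 ± 21.6 and 102 ± 10.3. It was lowest after normal mating, with a ratio of -0.77 ± 0.21, which did not reach 2-fold. Its vasectomized-mated ratio was 1.58 ± 0.21, while the signals of those arrays were nearly equal, so that ratio came from the scaling of the dimmer array. Each gene had 1 probe, at chr2:14281098-14281158 and chr6:124312766-124312825 on mm7.

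Msr1 and Marco are class A scavenger receptors, which bind modified low-density lipoprotein and bacterial surfaces. Both were dim in all groups. Msr1 had signals of 17.4, 23.1 and 32.8, with ratios of 1.21 ± 0.31 after normal mating and 1.98 ± 0.32 after vasectomized mating. A second Msr1 probe, whose target spans an intron, gave signals of 13.9, 14.5 and 32.5 and ratios of 1.53 and 1.63. The probe nearest the 5' end was well above background on the normal-mated array alone, at a signal of 9.97, and gives no fold. Both usable probes therefore placed Msr1 above the not mated level after either mating, by their scaled values, and without scaling the normal-mated signal was the highest. The normal-mated ratio was below 2-fold with normexp background correction (0.56) and with spike-in scaling (0.70). Marco had signals of 38.2, 48.8 and 49.97 from its 1 probe, with ratios of 0.69 ± 0.23 and 1.92 ± 0.24.

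Fcgr1 encodes the high-affinity receptor for immunoglobulin G. Its signal was 1022 ± 102, 876 ± 87.6 and 823 ± 82.3, which puts the 3 arrays within a narrow range before scaling. The normal-mated ratio was -0.01 ± 0.20 and the vasectomized-mated ratio 1.35 ± 0.20. A second probe 1520 bases away gave 193, 128 and 138, with ratios of -0.18 and 0.98, the latter just under 2-fold. Of its relatives, Fcgr4, an activating receptor, had ratios of 1.79 and 2.23 after normal and vasectomized mating. Fcgr2b, the inhibitory receptor, had -0.90 and -0.01, with probes from -0.94 to 0.37 in the second comparison. Fcgr3 had 0.13 and 0.80, with its probes ranging from -0.68 to 0.80 in the second comparison, and Fcer1g, the signalling chain that Fc receptors share, had 0.05 and 0.23. Of 7 genes of Fc receptors and their signalling beside Fcgr1, 1 was at least 2-fold higher after normal mating and 2 after vasectomized mating, and none was lower. Among all genes 9.81% and 25.8% were that much higher. Fcgr4 was the only one of the 4 named relatives past 2-fold after either mating, and Fcgr1 passed it after vasectomized mating alone.

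Lyz2 encodes lysozyme M, an enzyme that cuts bacterial cell walls and is made by macrophages and neutrophils alike. Its signal was 31961 ± 3196, 33732 ± 3373 and 23325 ± 2332. The normal-mated array was lowest and the ratio to not mated was -0.15 ± 0.20. The vasectomized-mated ratio was 1.65 ± 0.20, against an unscaled difference of 0.08. The local background of this spot carried the software's outlier flag on the not mated and vasectomized-mated arrays, while the spot itself did not. A probe 4666 bases towards the 5' end gave 306, 148 and 166, with ratios of -0.58 and 0.52, so only 1 of the probes passed 2-fold. Lyz1, the neighbouring lysozyme gene, had signals of 4299, 4809 and 2999 and ratios of -0.22 and 1.73. The annotation of its probe also lists the Lyz2 transcript, so the pair of paralogs cannot be told apart there.

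The comparison with vasectomized mating depended on how the dim array was scaled. Scaled to the spike-in probes, the ratio of Adgre1 was 1.01 and that of Mrc1 -0.02, and the other 6 members lay between -2.27 for Cd68 and -0.75 for Msr1. The median of all genes was then -2.61, a shift of -2.79 from the main scaling. All 8 members were above the median of all genes and 7 were at least 2-fold above it, as in the main scaling. A constant per array moves each ratio and that median nearly alike, so these counts give no check of the scaling. Without any scaling, 2 members, Adgre1 and Mrc1, were at least 2-fold higher on the vasectomized-mated array and 1, Cd68, was at least 2-fold lower. With normexp 7 members were above the median of all genes and 4 were at least 2-fold above it. The direction against the not mated array held under every scaling run here for Adgre1 alone. Spike-in scaling lowers every vasectomized-mated ratio by the same amount, so a gene or list named below with a ratio between 0 and the 2.71 of Mrc1 turns negative there, and ratios already below 0 keep their sign. Lyz2 was under 2-fold with quantile (0.70) and cyclic loess (0.85) normalization. The Cd68 ratio after normal mating stayed between 2.43 and 3.14 under all 9 alternatives.

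**Figure D3:**
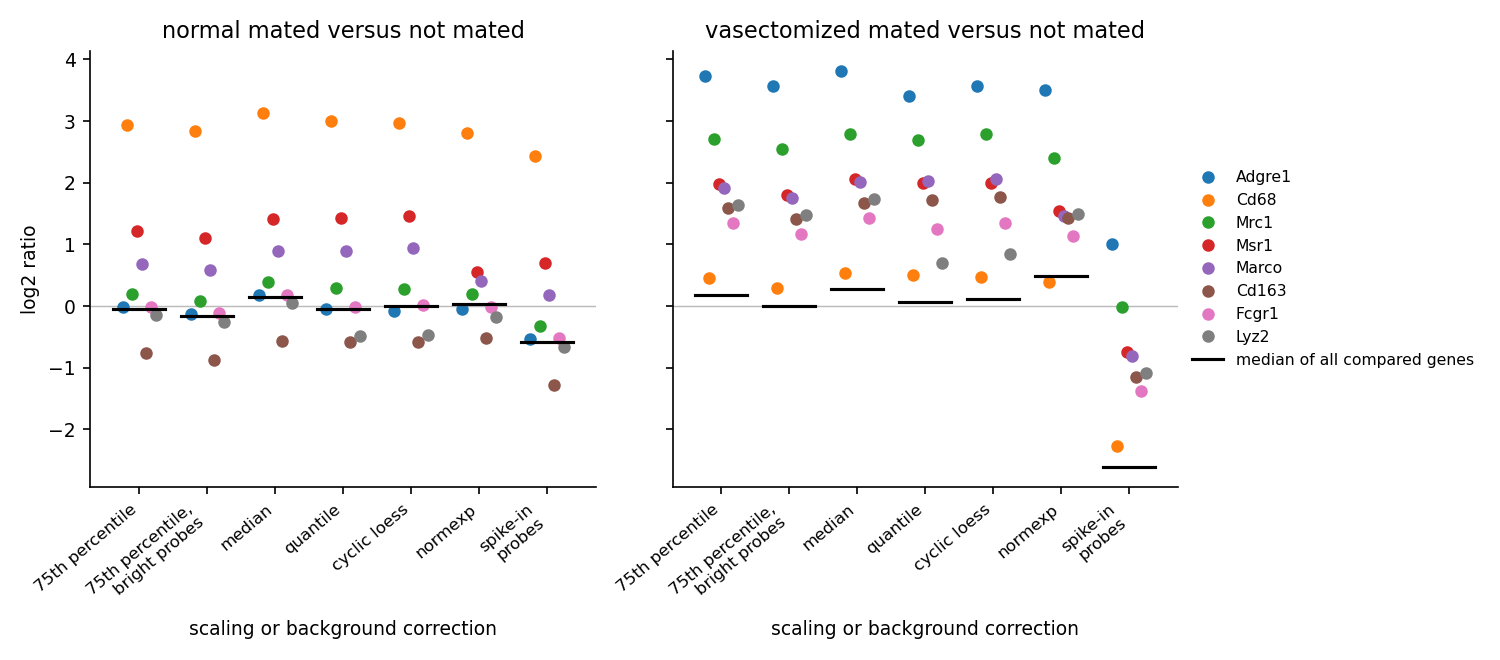
Log2 ratio of each marker to the not mated array under 7 scalings or background corrections, for normal mated (left) and vasectomized mated (right), with the median of all compared genes as a black bar. Cd68 stays between 2.43 and 3.14 on the left. On the right the markers and the median move down together with spike-in scaling, to a median of -2.61.

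Probes of a gene also disagreed more on the vasectomized-mated array. Among genes with several probes well above background, the probes lay over 2-fold apart in 11.9% of 6300 genes for normal mated against not mated, and in 51.9% of 5822 for vasectomized mated. In 1014 genes whose probes lay 100 to 1000 bases apart, the vasectomized-mated ratio was larger at the probe nearer the 3' end in 70.8%, against 52.7% for normal mated. The probe used was the one nearer the 3' end for Adgre1, Msr1, Fcgr1 and Lyz2, as in 68.9% of 5244 genes. The ratio of the 3' probe exceeded that of the 5' probe by 0.37 for Fcgr1 and by 1.12 for Lyz2 after vasectomized mating, and by 0.17 and 0.43 after normal mating. With the probe farthest from the 3' end among those well above background on both arrays, 5 members in place of 7 were at least 2-fold higher after vasectomized mating. That choice could change the probe of Msr1, Fcgr1 and Lyz2 only, as the other members had 1 usable probe each. Fcgr1 (0.98) and Lyz2 (0.52) then fell under 2-fold, and Msr1 (1.63) did not. The part of probe position in these ratios was not tested.

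**Figure D4:**
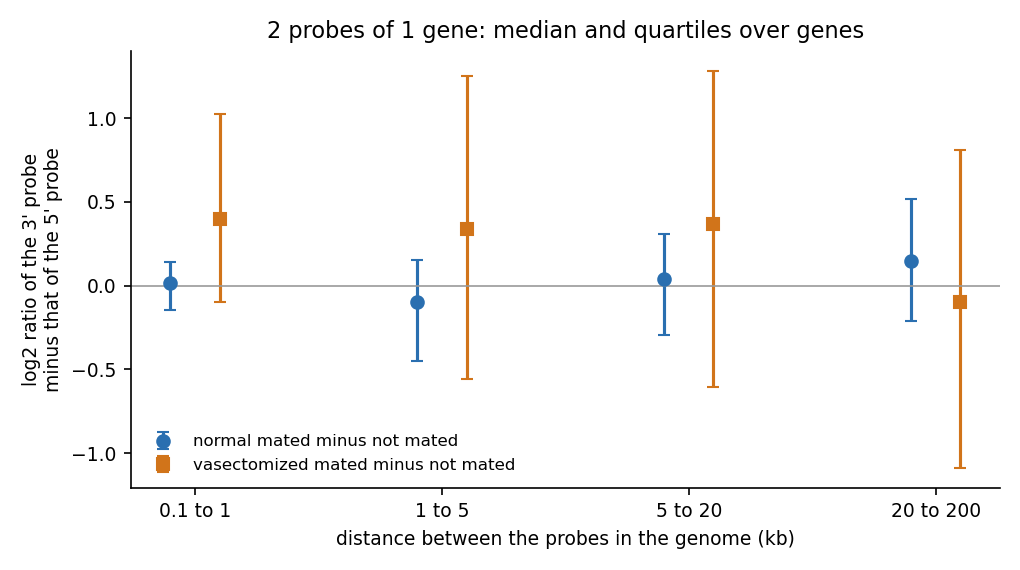
Difference in log2 ratio between the 3' and the 5' probe of a gene, as median and quartiles over genes, by the distance between the probes. For vasectomized mated (squares) the median is above 0 up to 20 kb, at 0.40 in the first bin, and below 0, at -0.10, in the last. For normal mated (circles) it is 0.01 in the first bin and 0.15 in the last.

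The remaining scavenger and macrophage genes did not all follow the 8 markers. Among 18 scavenger receptors other than the members, 4 were at least 2-fold higher and 5 lower after normal mating (median -0.43). After vasectomized mating 6 of 16 were higher and 3 lower (median 0.59). Among all genes 9.81% were that much higher and 13.2% lower after normal mating, and 25.8% and 16.5% after vasectomized mating. Dmbt1, a secreted epithelial scavenger protein, had ratios of 6.48 and 4.93, and Cxcl16, a chemokine that is also a receptor for oxidised lipoprotein, 2.89 and 2.06. The relatives Cd36 (-0.36 and 0.72), Scarb1 (-0.98 and -0.70) and Stab1 (-1.06 and 0.55) were not higher by 2-fold after either mating, and the probes of Stab1 ranged from -0.31 to 0.55 in the second comparison. Mrc2, the collagen-binding relative of Mrc1, had -1.05 and 1.01, but its 3 probes ranged from -1.42 to 1.74 in the second comparison. Fcrls, listed on the array as Msr2, had -0.54 and 1.26. Adgre5, a relative of Adgre1 found on many leukocytes, had 0.41 and 0.68, and Adgre4 was not well above background after normal mating, with a bound of -1.21, and had 2.20 after vasectomized mating.

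Among other macrophage surface and core genes, 5 of 27 were at least 2-fold higher and 3 lower after normal mating (median -0.10), and 14 of 26 were higher and 2 lower after vasectomized mating (median 1.13). Csf1r, the receptor for the growth factor that macrophages need, had -0.94 after normal and -0.91 after vasectomized mating, the latter opposite in sign to Adgre1. Mertk, a receptor for dying cells, had -1.67 and -1.13, both past 2-fold and the lowest of the list in each comparison. The complement chains C1qa (-1.06 and -1.10), C1qb (-0.81 and -0.36) and C1qc (-0.86 and 0.24), made by resident macrophages, were not alike after vasectomized mating. Genes past 2-fold the other way there include Trem2 (-0.05 and 1.81, probes from 0.93), Tyrobp (-0.06 and 1.51) and Ms4a7 (-0.79 and 1.34). Mertk, the complement chains and these genes were named after their values were seen. Itgam, the integrin chain of macrophages and neutrophils, had 1.96 and 1.14, and Cd14, the co-receptor for endotoxin, 2.60 and 1.78. Clec7a, the receptor for fungal glucan, had 0.77 and 3.07, and Clec10a, a galactose-binding lectin, 0.14 and 2.49. Cx3cr1, the fractalkine receptor, had -1.54 and 0.21, and Ccr2, the receptor that brings monocytes into tissue, -0.84 and 1.73. The gene set named for macrophages thus held genes of both directions in each comparison, but after vasectomized mating most that passed 2-fold were higher. There 14 of 26 were higher and 2 lower, beside 25.8% and 16.5% of all genes.

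Genes of monocytes, of lysosomes and of macrophage activation gave further counts. Beside these and the lists below stand the shares of all genes at least 2-fold apart. They were 9.81% higher and 13.2% lower after normal mating, and 25.8% higher and 16.5% lower after vasectomized mating. Of 10 monocyte genes, 5 were at least 2-fold higher after normal mating and 7 after vasectomized mating, and none was lower (medians 1.20 and 1.49). Plac8 had ratios of 3.24 and 3.58 and Chil3 2.33 and 3.09, whereas Ly6c1 had 2.67 and 0.80, its probes ranging from 0.02 to 2.67 and from -1.04 to 0.80. Of 22 genes of lysosomes and phagocytosis, the compartment of Cd68, 6 were higher and 3 lower after normal mating (median 0.35), and 8 higher and 4 lower after vasectomized mating (median 0.52). Acp5, a lysosomal phosphatase, had 2.42 and -0.37, higher after normal mating alone by the 2-fold rule, as Cd68 was. Lamp2, a lysosomal membrane protein, had 1.17 and 2.22, its probes ranging from -0.14 to 1.17 in the first comparison, and Cyba, a chain of the phagocyte oxidase, 2.06 and 1.33. Of 17 activation genes, 13 could be compared. Nos2, Il12b, Il10 and Ccl22 were well above background on no array. In each comparison 10 were higher, among them Arg1 (5.85 and 4.91), Il1b (5.27 and 6.17) and Il6 (2.44 and 6.52). None was lower by 2-fold, Retnla being lowest at -0.99 and -0.29. Of 14 myeloid transcription factors, 2 were higher and 3 lower after normal mating, and 5 of 13 were higher and 2 lower after vasectomized mating. They include Bhlhe40 (2.98 and 1.63), Cebpb (0.47 and 2.02) and Maf (-0.62 and 2.38). In the second comparison the probes of Cebpb ranged from -0.18 to 2.02 and those of Maf from -0.06 to 2.38. Of 8 growth factors and receptors 3 were higher in each comparison, and Csf3r, the receptor for the neutrophil growth factor, had 2.96 and 2.36, Csf3 0.51 and 1.93, and Il34 1.24 and 0.87.

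Markers of other cells moved on the same arrays. Of 15 neutrophil genes, 12 were at least 2-fold higher after each mating, and 1, Ctsg, was lower after normal mating (-2.19). Their summed signal, in multiples of the 75th percentile of the array, was 101, 159 and 361. Single genes carried it: Ltf, which encodes lactoferrin, gave 95.6% of the sum without mating and 62.3% after normal mating, and S100a9 gave 52.2% after vasectomized mating. On the not mated array Ltf had a signal of 84139, whereas S100a8 (5.2) and Cxcr2 (2.8) were not well above background. There 10 of the 17 genes of this list on the array were well above background, so the sum does not measure the list as a whole. Ltf had ratios of 1.22 and -0.73. S100a9, an abundant neutrophil protein, had ratios of 8.96 and 9.54, S100a8 had bounds of at least 7.70 and 7.39, Lcn2 had 6.25 and 3.32, and Mpo 0.60 and 3.69. The same sum over the 8 macrophage markers was 40.7, 143 and 41.6, of which Lyz2 gave 89.8%, 80.2% and 79.2%. Over the other macrophage genes it was 48.4, 127 and 147, of which Cd14 gave 36.9%, 48.1% and 73.6%. Of 12 genes of ovary and corpus luteum, 5 were higher and 2 lower after normal mating, 7 were higher and none lower after vasectomized mating, and their sum was 1.32, 13.9 and 1.99. Hsd3b1, a steroid-making enzyme, had 4.04 and 8.11. Of the 18 lists, the 8 markers included, 13 had their highest sum on the vasectomized-mated array, the reference genes among them. The part of these cells in the values of the 8 markers was not tested.

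The remaining lists mark dendritic cells, vessels, leukocytes in general and red blood cells, or hold reference genes. Of 10 dendritic cell genes, none was 2-fold higher and 5 were lower after normal mating, and 3 were higher and 4 lower after vasectomized mating. H2-Aa, a chain of the class II molecule, had -1.94 and -2.59, though its probes ranged from -2.59 to -0.01 in the second comparison. Of 12 endothelial genes 9 were lower after normal mating and 6 after vasectomized mating, where 1 was higher. That gene, Cdh5, gave -2.67 at one probe and 2.44 at another. Of 10 genes common to leukocytes, 1 was higher and 2 lower after normal mating, and 3 higher and 2 lower after vasectomized mating. Ptprc, which encodes CD45 on all leukocytes, had -0.83 and 2.90. Its probes ranged from -2.02 to -0.83 in the first comparison. Only 1 of them was usable in the second, so the value of 2.90 has no check from another probe. None of 4 red blood cell genes was past 2-fold after normal mating, and Hbb-bt was higher, at 2.51 with probes from 0.98, after vasectomized mating. Of 11 reference genes 1 was higher after normal mating and 3 after vasectomized mating, Pgk1 at 2.15 and 2.36.

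**Figure D5:**
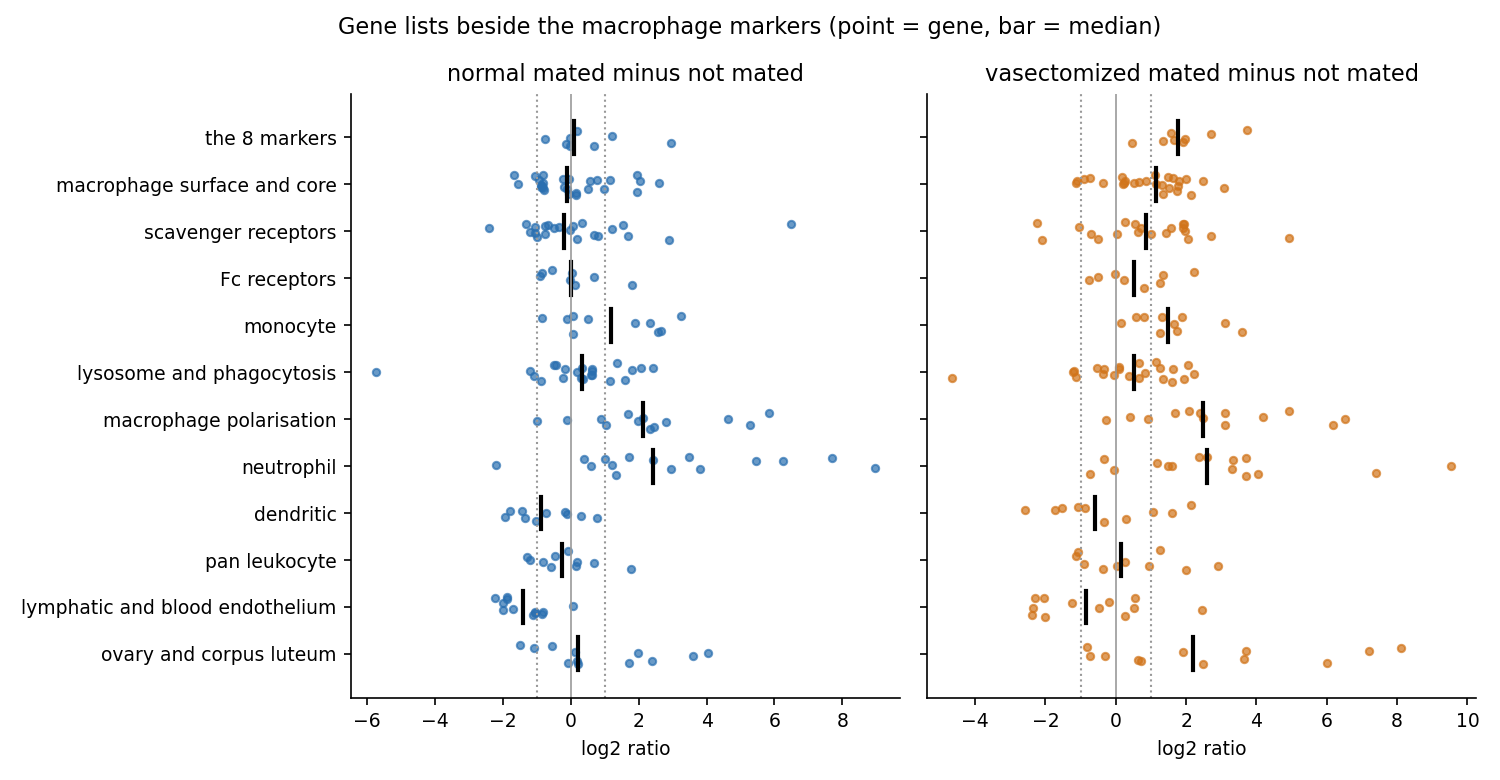
Log2 ratio to the not mated array of each compared gene in 12 lists, for normal mated (left) and vasectomized mated (right), with the list median as a bar and 2-fold as dotted lines; bounds are drawn at their value. The 8 markers have medians of 0.09 and 1.78, and the neutrophil genes lie highest in both panels by their most extreme gene, S100a9.

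Set against each other, the matings differed in 7 of the 8 members by at least 2-fold, as did 42.7% of all genes compared. Cd68 was higher after normal than after vasectomized mating, by 2.48 ± 0.20 or 5.59-fold, in a comparison in which 14.7% of 18988 genes were at least 2-fold higher. Another 6 were lower, where 28.0% of genes were, and the median over the members was -1.58 beside -0.27 over all genes. Adgre1 had the largest difference, -3.76 ± 0.20, and 121 genes had a lower value. Mrc1 had -2.52, Cd163 -2.35, Lyz2 -1.80, Fcgr1 -1.36 and Marco -1.23. Msr1, at -0.76, stayed under 2-fold, and it was 0.25 with the mean over its probes. This comparison uses the arrays of the other comparisons again and adds no measurement. With spike-in scaling the ratio of Msr1 turned to 1.45, past 2-fold, and those of Marco, Fcgr1 and Lyz2 to 0.98, 0.86 and 0.42, whereas Adgre1, at -1.54, remained lower by over 2-fold.

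The members fell into a few shapes over the 3 arrays. Likeness was measured as the Euclidean distance between log2 profiles centred on each gene, over 3 arrays, so many genes come close by this measure alone. Fcgr1 and Lyz2 were nearest, at 0.32, followed by Msr1 and Marco at 0.41 and by Cd163 and Lyz2 at 0.48. Adgre1 lay 0.94 from Mrc1 and 4.41 from Cd68. Of 17207 genes well above background on all arrays, 45 lay within 0.5 of Adgre1 and 29 within 0.5 of Cd68, against 445 for Mrc1, 545 for Msr1, 646 for Cd163, 1272 for Marco, 1555 for Lyz2 and 2374 for Fcgr1. Klf10 was among the 3 genes nearest to Adgre1, at 0.14, and Ly6a among the 3 nearest to Cd68, at 0.20. Nearest to Cd163 was Nckap1l, a gene of the blood cell lineage that organises actin, at 0.011, and Adam9 was among the nearest to Marco, at 0.032. The profiles of Adgre1 and Cd68 had the fewest near genes among the 8 members.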

How the data were processed

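Total RNA of the utero-tubular junction was labelled with Cy3 from an oligo-dT primer, per the labels' protocols. The deposited intensity values are Agilent Feature Extraction's processed signals, per the file headers, with the background removed array by array and no scaling of one array to another. The software version is 9.5.3 in the submitters' processing notes, against 10.5.1.1 in the headers. Probe positions are those of the headers on mm7. No annotation of that build was used, so exon and UTR positions are not given. All 3 arrays carry one slide scan.

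Log2 signals were centred on the 75th percentile of all non-control spots of each array. Spots with outlier flags were then left out when spots were averaged to probes. R 4.3.3, limma 3.58.1, jsonlite 2.0.0 and data.table (version 1.17.8) were used, with Python 3.11.15, matplotlib 3.10.9, pandas 2.3.3 and numpy 2.4.6. Probes were named through RefSeq (GRCm38.p6), 22951 by accession, 6659 by symbol and 3109 by synonym, and 8455 kept the name in the file. A gene takes its brightest probe. A ratio with 1 array not well above background is a bound, from the lowest signal well above background, and genes with neither were not compared. The median SD of log2 signal between replicate spots was 0.0573, 0.0644 and 0.0543 on the not mated, vasectomized-mated and normal-mated arrays. With 1 array per group, their number limits the precision, and genes count as different at 2-fold.

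Named genes are the members, their direct relatives, a few myeloid and neutrophil genes, the 3 genes of each list with the largest ratio measured on both arrays, and the 3 genes nearest to each member. Not all of them are printed, and some others, such as Mertk and Trem2, are named outside this rule. The members and the 17 other lists were chosen with earlier results of these data known. Alternatives were normexp (offset 50), quantile, cyclic loess, median, bright-probe and spike-in scaling, filters on dim probes, the mean over probes and other fold thresholds. The ratio step was tested on simulated data.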

Additional observations from a re-analysis of the deposited data

How the results depend on the processing

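No paired analysis was possible because each group has 1 array and no replicate number, and no array could be left out. Most counts of members stayed within 1.5 times the main value across the alternatives. After normal mating, 1 member in place of 2 was higher with normexp, with spike-in scaling and at 3-fold, and 1 in place of 0 was lower with spike-in scaling (Cd163, -1.28) and at 1.5-fold. With spike-in scaling 1 member was higher and 4 were lower after vasectomized mating, and between the matings 2 were higher and 1 lower after normal mating. The same scaling turned the vasectomized-mated ratios of Cd68 (-2.27), Mrc1 (-0.016), Msr1 (-0.75), Marco (-0.81), Cd163 (-1.14), Fcgr1 (-1.38) and Lyz2 (-1.08), and the ratios between the matings of Msr1 (1.45), Marco (0.98), Fcgr1 (0.86) and Lyz2 (0.42). It moved all genes together, as its construction from other probes implies. The alternative with the probe farthest from the 3' end was chosen after seeing the data. Of all genes at least 2-fold apart, the share that was higher moved with the scaling. After normal mating it was 42.7% in the main setting, 59.5% with normexp, 52.9% with cyclic loess, 56.7% with the median and 16.3% with spike-ins. After vasectomized mating it was 61.0%, 77.1% with normexp and 1.23% with spike-ins, and between the matings 34.5% and 98.5% with spike-ins. Counts of genes rested on 1 pool per group, and Msr1 and Marco had the dimmest probes.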
